A study of Mus musculus with 48 samples.

Results

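The prefrontal cortex (PFC) was set against the striatum (STR) at 6 times of day, with all 12 PFC arrays and all 12 STR arrays of a study of 48 arrays. Arrays were chosen by the tissue and Zeitgeber time (ZT, hours after lights on) in their labels, and each PFC array was paired with the STR array of the same ZT and replicate number, which gave 12 pairs. The mice were male C57BL/6 animals kept under a cycle with 12 h of light a day and killed every 4 h over 2 successive days. ZT3, ZT7 and ZT11 fell in the light and ZT15, ZT19 and ZT23 in the dark, and replicates 1 and 2 came from successive 24-h cycles. Both tissues came from animals with no further treatment named in the labels. Tissue was cut from coronal slices of the whole region, and RNA of 3 mice was pooled for each array, so the spread given below is that between pools and not between animals. The other 24 arrays, of the midbrain regions that hold dopamine neurons (SN/VTA, for substantia nigra and ventral tegmental area) and of the habenula (HAB), were used for comparison.

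Both regions receive dopamine axons from the ventral midbrain, but they are built from different cells. Most neurons of the cortex are glutamatergic pyramidal cells that arise in the dorsal telencephalon, with a minority of local GABA interneurons. The striatum arises in the ventral telencephalon and consists mostly of GABAergic medium spiny neurons, of which one kind carries D1 dopamine receptors, substance P and dynorphin (the direct pathway) and the other D2 dopamine receptors and enkephalin (the indirect pathway). Every cell of both regions also holds the circadian clock, a loop in which CLOCK and BMAL1 drive genes whose products repress them.

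Levels are log2 values per gene as deposited, and every difference below is PFC minus STR on that scale, so that 1 stands for 2-fold. The SE of a difference comes from limma over the 12 pairs, and a gene was called when its Benjamini-Hochberg adjusted p was under 0.05 and its difference at least 1 in size. Correlations across the 17274 genes tested were 0.987 to 0.992 among PFC arrays, 0.985 to 0.992 among STR arrays, and 0.923 to 0.938 between the tissues. Array medians over all rows were 5.96 to 6.01 in PFC and 6.03 to 6.07 in STR. The labels were checked with marker genes. Slc17a7, Tbr1, Neurod6 and Fezf2 of cortical neurons lay higher in all 12 PFC arrays than in any STR array, and Drd1, Drd2, Rgs9, Penk, Tac1 and Gad2 of striatal neurons lower. The cortical marker Emx1 did not separate the tissues, with levels of 5.10, 5.77 and 6.06 in PFC and 5.25, 5.53 and 5.89 in STR (lowest, median and highest of 12 arrays), close to the filter of 5.05. One STR library stood apart: the ZT3 array of replicate 1 had a level of 11.79 for Ttr, the thyroid hormone carrier made by the choroid plexus, where the other 11 STR arrays had 7.13 to 8.94.

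Of the 17274 genes, 1077 (6.23%) were called between the tissues, 621 (3.59%) higher in PFC and 456 (2.64%) lower. At the adjusted p alone 12565 genes (72.7%) passed, with a median difference over all genes of -0.05, and the 12 arrays of PFC lay entirely above or below those of STR for 5116 genes (29.6%). Among the 6 pairs of tissues in the study, PFC and STR had the second highest count by the same rule. The share called was 9.33% for SN/VTA and PFC, 5.68% for PFC and HAB, 5.18% for SN/VTA and STR, 3.58% for SN/VTA and HAB and 3.42% for STR and HAB. These comparisons share arrays. For 575 of the 621 genes higher in PFC, the PFC mean was the highest of the 4 tissues, and for 452 the STR mean was the lowest. For the 456 genes lower in PFC, STR had the highest mean for 265 and PFC the lowest for 380. In both directions PFC was thus the outermost tissue for more genes than STR. The choice of genes by this difference favours outermost means, and the same counts over all genes were not taken.

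The named genes with the largest positive differences included markers of cortical pyramidal cells and of cortical interneurons. Predicted genes, short RNAs, and receptor genes of smell and immunity were passed over in this order; 12 of them lay above the last gene named here, 4 of these above Neurod6, and the highest differed by 5.26. Neurod6, a transcription factor of pyramidal neurons, had levels of 8.72, 9.03 and 9.20 in PFC and 4.41, 4.98 and 5.78 in STR (lowest, median and highest of 12 arrays), a difference of 4.01 ± 0.09 (SE, n = 12 pairs), or 16.1-fold higher in PFC (limma, adjusted p = 9.3e-16). Its STR levels were near the filter, so the fold depends on how the array reads low levels. Nrn1, which encodes the activity-regulated growth factor neuritin, had 11.11, 11.30 and 11.40 in PFC and 7.27, 7.64 and 8.18 in STR, a difference of 3.60 ± 0.07. Slc17a7, the vesicular glutamate transporter of cortical neurons, had 11.38, 11.51 and 11.70 in PFC and 7.28, 8.08 and 9.05 in STR, a difference of 3.37 ± 0.13. The groups did not overlap for any of these genes, although Slc17a7 varied widely among STR arrays, with 9.05 at ZT15 and 8.97 at ZT7 of replicate 1. Ccn3, a secreted matrix-associated protein, differed by 3.27 ± 0.07, and Fezf2, the transcription factor that directs deep-layer neurons to subcortical targets, by 3.26 ± 0.09. The other genes among the 15 highest so ranked were Prdm8 (3.14), the relaxin receptor Rxfp1 (3.1), Vxn (3.02), the interneuron peptide Vip (2.95), the protease inhibitor Serpini1 (2.89), Bmp3 (2.77), Cck (2.71), the Wnt enhancer Rspo2 (2.67), the AMPA receptor auxiliary subunit Cnih3 (2.65) and the potassium channel Kcnh7 (2.58).

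At the other end stood genes of medium spiny neurons, with 3 genes passed over by the same rule, the lowest of them at -3.38. Drd2, the D2 dopamine receptor, had levels of 6.64, 7.53 and 7.98 in PFC and 11.36, 11.54 and 11.72 in STR, a difference of -4.11 ± 0.10, or 17.3-fold lower in PFC (limma, adjusted p = 1.58e-15). Rxrg, a retinoid receptor of striatal neurons, had 5.93, 6.33 and 6.58 in PFC and 8.81, 9.52 and 9.76 in STR, a difference of -3.16 ± 0.08. Nts, the precursor of neurotensin, had 4.43, 4.93 and 5.36 in PFC and 7.34, 8.0 and 8.58 in STR, a difference of -3.09 ± 0.10. No PFC array reached the lowest STR array for these genes. Rgs9, which speeds the shut-off of G proteins behind dopamine receptors, differed by -2.74 ± 0.07, Drd1, the D1 receptor, by -2.72 ± 0.05, Tac1, the precursor of substance P, by -2.64 ± 0.06, and Penk, the precursor of enkephalin, by -2.54 ± 0.07. The other genes among the 15 lowest so ranked were the synaptic vesicle protein gene Sv2c (-2.95), the lectin receptor gene Clec12a (-2.82), Sh3rf2 (-2.81), the polymerase subunit gene Polr2f (-2.70), the peptidase gene Ecel1 (-2.67), Lrrc10b (-2.58), Gpr149 (-2.56) and Pcp4l1 (-2.51). In whole tissue, fewer cells of a type and less RNA per cell cannot be told apart.

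**Figure D1:**
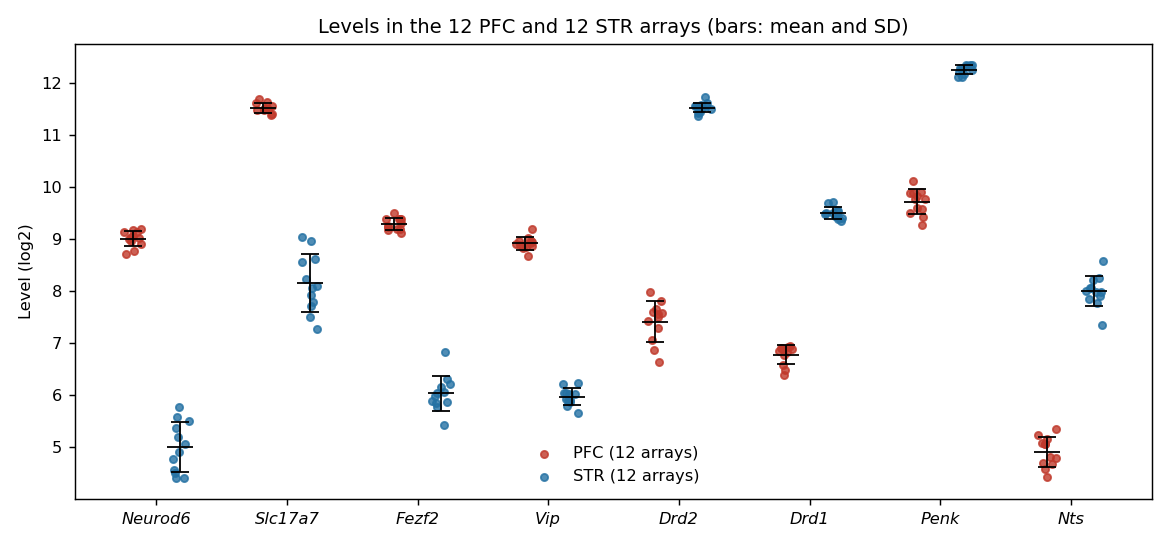
Levels (log2) of 8 genes in the 12 PFC arrays (red, left) and the 12 STR arrays (blue, right), with 1 point per array and bars for the mean and SD. Neurod6, Slc17a7, Fezf2 and Vip lay higher in all PFC arrays, Drd2, Drd1, Penk and Nts lower; Slc17a7 spread from 7.28 to 9.05 in STR.

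Of 14 measured genes of cortical glutamatergic neurons, 10 were higher in PFC and 0 lower, with a median difference of 2.07. They included Slc30a3 (2.49 ± 0.08), the zinc transporter of glutamate vesicles, Tbr1 (2.46 ± 0.07), Neurod2 (2.12 ± 0.10) and Mef2c (1.60 ± 0.04; 0.38 on its second row). The exceptions were Slc17a6 (0.18), Emx1 (0.19), Nptx2 (0.46) and Camk2a (0.51), the last 2 of which are also used by striatal neurons. Genes that mark single cortical layers differed less as a group, with a median of 0.08. Of 21, 4 were higher in PFC, namely Fezf2, Rorb of layer 4 (1.64 ± 0.07), Lamp5 (1.16 ± 0.04) and Deptor (1.06 ± 0.04), and 0 were lower. The shares of all genes were 3.59% and 2.64%. The arrays of the tissues did not overlap for 11 of the 21, against 29.6% of all genes. Crym at -0.92 ± 0.05 and Syt6 at -0.93 ± 0.05 lay below 0 although both mark deep cortical layers.

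The signalling machinery of medium spiny neurons was lower in PFC as a group: 13 of 17 measured genes were called lower and 0 higher, with a median of -1.96. For all 17, Arpp21 included, the 12 arrays of the tissues did not overlap in either direction, against 29.6% of all genes. The chain behind the dopamine receptors was represented at each step, by the G protein subunits Gnal (-1.32 ± 0.04) and Gng7 (-2.14 ± 0.07), the adenylyl cyclase Adcy5 (-1.82 ± 0.06), the phosphodiesterases Pde10a (-2.19 ± 0.05) and Pde1b (-2.01 ± 0.05), and Rgs9. The exception in sign was Arpp21, a cAMP-regulated phosphoprotein, at 0.95 ± 0.05. Direct pathway genes were lower in 6 of 9 cases, among them Slc35d3 (-2.28 ± 0.06), Isl1 (-1.93 ± 0.08), Pdyn (-1.42 ± 0.06) and the muscarinic receptor gene Chrm4 (-1.39 ± 0.05), and indirect pathway genes in 5 of 8, among them Gpr6 (-1.87 ± 0.08), Sp9 (-1.37 ± 0.05) and Gpr52 (-1.35 ± 0.06). Their medians were -1.42 and -1.36.

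The 5 dopamine receptor genes did not move together. Drd1 and Drd2 were lower in PFC as given above, and so was Drd3, the receptor of the ventral striatum, with levels of 5.24, 5.76 and 6.03 in PFC and 7.72, 8.12 and 8.66 in STR (-2.41 ± 0.09, limma adjusted p = 1.94e-13). Drd5 had 7.16, 7.39 and 7.55 in PFC and 7.17, 7.59 and 7.71 in STR, a difference of -0.12 ± 0.06. Drd4, often described as a cortical receptor, had 5.29, 5.50 and 5.82 in PFC and 5.19, 5.54 and 5.73 in STR, a difference of 0.00 ± 0.07. The tissues overlapped for both, and Drd4 was close to the filter. Of 6 genes for making, storing and breaking down dopamine, Slc18a2, the vesicular monoamine transporter, was lower in PFC (-1.39 ± 0.06). The rest were not called: Ddc differed by -0.63 ± 0.05, Th by -0.53 ± 0.08 and Slc6a3 by -0.20 ± 0.06, while the breakdown enzyme genes Maoa and Maob differed by 0.70 ± 0.06 and 0.25 ± 0.04.

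**Figure D2:**
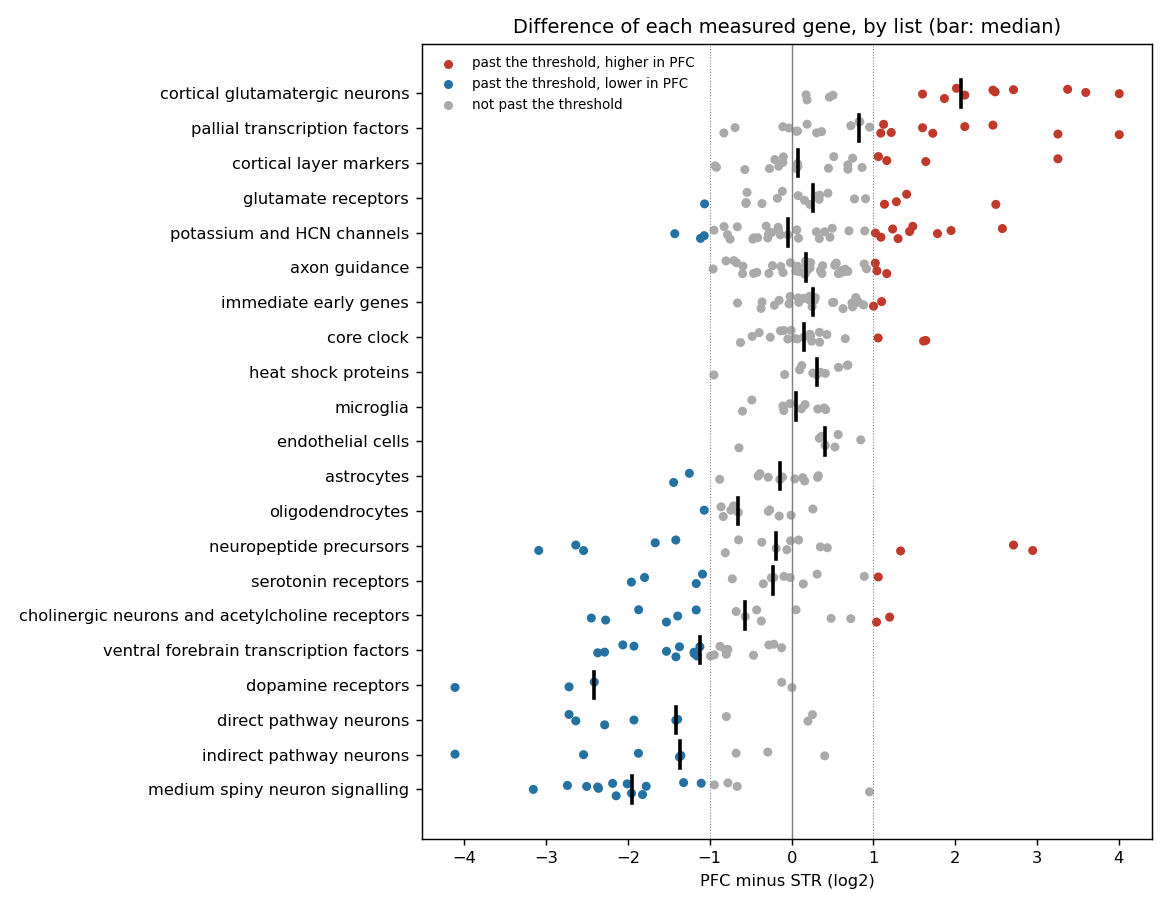
Difference PFC minus STR (log2) of each measured gene, by list, with 1 point per gene and a black bar for the median; red and blue mark genes past the threshold and dotted lines differences of 1. Cortical neuron genes (median 2.07) and medium spiny neuron signalling genes (median -1.96) lay at opposite ends, and the core clock list near 0 (median 0.15).

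Neuropeptide genes split by the neurons that use them. Of 17 precursors, 3 were higher in PFC (Vip at 2.95 ± 0.05, Cck at 2.71 ± 0.10 and Adcyap1 at 1.33 ± 0.07) and 5 lower (Nts, Tac1, Penk, Cartpt at -1.67 ± 0.04 and Pdyn). Sst and Npy, the peptides of interneurons found in both regions, differed by 0.44 ± 0.04 and -0.06 ± 0.04. Among 18 peptide receptor genes, the cholecystokinin receptor gene Cckbr (1.86 ± 0.05), Sstr4 (1.20 ± 0.05), Npy1r (1.18 ± 0.05) and Sstr2 (1.13 ± 0.05) were higher in PFC. The tachykinin receptor genes Tacr3 (-1.68 ± 0.05) and Tacr1 (-1.5 ± 0.07), Oprk1 (-1.06 ± 0.06) for the dynorphin receptor and Npy2r (-1.02 ± 0.05) were lower, the last at -0.99 without the ZT7 pair of replicate 1 or the ZT3 pair of replicate 2.

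Among transcription factors, those called from the dorsal list were higher in PFC and those called from the ventral list lower. Of 22 factors of the pallium, from which the cortex arises, 9 were higher in PFC and 0 lower, with a median of 0.83, and 4 lay below 0 without a call, among them Pou3f1 (-0.83) and Lmo3 (-0.69). Beside those already named they were Zfpm2 (1.73 ± 0.07), Nfib (1.22 ± 0.05), Lmo4 (1.13 ± 0.04) and Sox5 (1.09 ± 0.07). Of 21 ventral factors, 11 were lower in PFC and 0 higher, with a median of -1.12 and all 21 below 0. The homeobox gene Dlx5 had levels of 7.04, 7.21 and 7.84 in PFC and 9.32, 9.56 and 9.77 in STR (-2.29 ± 0.07), Dlx6 differed by -2.06 ± 0.07, and Rarb, a retinoic acid receptor of striatal neurons, by -2.37 ± 0.06. Lhx6 of cortical and striatal interneurons differed by -0.12 ± 0.05. In the retinoic acid list only 3 of 15 genes were called, all lower in PFC: Rxrg, Rarb and the binding protein gene Crabp1 (-2.38 ± 0.09). The receptor genes Rara, Rarg, Rxra and Rxrb lay between -0.51 and 0.39.

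Among genes of interneurons and local neurons, calls went in both directions. Of 17 GABA neuron genes, Vip and Htr3a (1.06 ± 0.07) were higher in PFC, and Gad1, Slc32a1 (-1.33) and Calb2 (-1.97) lower, with a median of -0.13. Gad1, which encodes an enzyme that makes GABA, had 6.66, 6.90 and 7.17 in PFC and 8.31, 8.43 and 8.66 in STR (-1.53 ± 0.06). Pvalb, the marker of fast-spiking interneurons of both regions, had 6.90, 7.12 and 7.42 in PFC and 6.79, 7.31 and 7.41 in STR (-0.13 ± 0.07). Cholinergic interneurons are a classic cell of the striatum, and their defining genes were all lower in PFC: the choline transporter gene Slc5a7 (-2.45 ± 0.06), the vesicular transporter gene Slc18a3 (-2.27 ± 0.07), Chat for the synthetic enzyme (-1.87 ± 0.05) and the factor Lhx8 (-1.53 ± 0.06). Chat had 5.15, 5.45 and 5.61 in PFC and 7.17, 7.27 and 7.39 in STR, close to the filter in PFC. Of the muscarinic receptor genes, Chrm3 was higher in PFC (1.20 ± 0.04), Chrm4 and Chrm5 (-1.17 ± 0.07) lower, and Chrm1 differed by 0.05 ± 0.05.

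Genes of signalling behind the receptors were called in both directions. Adcy1, a calcium-activated cyclase, was higher in PFC (1.86 ± 0.05) where Adcy5 was lower, and Pde1a was higher (1.32 ± 0.06) where Pde1b was lower. In all, 4 of 32 genes of G protein and cyclic nucleotide signalling were higher in PFC and 11 lower, with a median of -0.44. The inhibitory glutamate receptor gene Grm2 had 9.02, 9.16 and 9.39 in PFC and 6.42, 6.70 and 7.01 in STR (2.50 ± 0.05), and Grm8 (1.41 ± 0.07), Grin2a (1.28 ± 0.04) and Gria3 (1.14 ± 0.05) were higher too. Grm4 was the 1 lower gene among 20 glutamate receptor genes (-1.06 ± 0.06), and Gria1 and Gria2 differed by 0.08 ± 0.03 and 0.29 ± 0.04. Among GABA receptor genes Gabbr2 was higher (1.49 ± 0.04) while its partner Gabbr1 differed by -0.33 ± 0.03, and Gabrg1 was lower (-1.74 ± 0.05). Serotonin receptor genes were mostly low in PFC where they differed: Htr1b (-1.96 ± 0.04), Htr4 (-1.80 ± 0.07), Htr1d (-1.17 ± 0.05) and Htr2c (-1.09 ± 0.05) were lower and Htr3a higher, while Htr2a, the cortical target of psychedelics, differed by 0.14 ± 0.05.

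Ion channel genes were called in both directions. Of 37 potassium and pacemaker channel genes, 9 were higher in PFC and 3 lower, with a median of -0.05. The G protein-gated channel genes Kcnj6 (1.95 ± 0.07), Kcnj9 (1.48 ± 0.06) and Kcnj3 (1.3 ± 0.05) were higher, beside Kcnh7, Kcnt2 (1.78 ± 0.06) and Kcnv1 (1.44 ± 0.04). Kcna4 (-1.43 ± 0.05), Kcna5 (-1.11 ± 0.08) and Kcnn3 (-1.07 ± 0.06) were lower. Kcnj3 and Kcna4 each have a second, dimmer row on the array, which differed by 0.07 and -0.01, so that both calls rest on the row used. Among 26 sodium and calcium channel genes, the sodium channel subunit gene Scn4b was the lowest in PFC (-2.34 ± 0.07), and the calcium channel subunit genes Cacna2d1 (1.34 ± 0.05) and Cacna2d2 (-1.66 ± 0.04) were called in opposite directions. The calcium-binding protein genes Necab3 (1.57 ± 0.05) and Necab2 (-2.37 ± 0.05) did the same. Of 38 axon guidance genes 3 were called, near the share of all genes (6.23%), all higher in PFC (Ephb6 at 1.16 ± 0.05, Epha4 at 1.04 ± 0.04 and Sema3c at 1.02 ± 0.05, or 0.99 without the ZT15 pair of replicate 1). Of 27 synaptic adhesion genes 4 were higher, led by Cdh12 (2.23 ± 0.06) and Cbln2 (1.94 ± 0.07), and 2 lower, Slitrk6 (-2.16 ± 0.07) and C1ql2 (-1.08 ± 0.09).

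Glial and vascular genes passed the threshold about as rarely as all genes (6.23%). Their summed levels, to which the brightest genes add most, did not overlap between the tissues for 3 of 4 cell types. Of all single genes 29.6% did not overlap. Of 11 oligodendrocyte genes 1 was lower in PFC (Opalin, -1.07 ± 0.08), and the list median was -0.65. Their summed level ran from 12.38 to 12.78 in PFC and from 12.87 to 13.04 in STR (log2 of the summed linear levels). Of 13 astrocyte genes Agt (-1.44 ± 0.08) and Fabp7 (-1.25 ± 0.04) were lower in PFC. The list median was -0.14, and its highest difference was 0.33. The summed astrocyte level ran from 13.23 to 13.36 in PFC and from 13.48 to 13.66 in STR. None of 10 microglia genes and none of 7 endothelial genes was called, with medians of 0.05 and 0.41. The summed endothelial level lay the other way, at 10.92 to 11.17 in PFC and 10.44 to 10.71 in STR, and that of microglia overlapped, at 11.34 to 11.48 in PFC and 11.28 to 11.51 in STR. Summed levels of markers of neighbouring tissue lay lower in all PFC arrays than in any STR array for the thalamus (3 of 8 called, summed level 10.06 to 10.26 in PFC and 10.98 to 11.19 in STR), for the septum and olfactory bulb (2 of 7 called, 9.58 to 9.81 in PFC and 10.49 to 10.71 in STR) and for the choroid plexus (2 of 8 called, 9.04 to 9.48 in PFC and 9.53 to 12.07 in STR). The highest of these choroid plexus values was that of the ZT3 array of replicate 1, and Ttr differed by -0.63 ± 0.27 with that pair and by -0.34 without it. Summed levels were also lower in all PFC arrays for ependymal cells (1 of 5 called, 8.20 to 8.69 in PFC and 8.92 to 9.15 in STR). The same held for the hippocampus (1 of 6 called, 8.56 to 8.74 in PFC and 8.87 to 9.12 in STR). Some genes stand in several lists, such as Zic1 (-1.68) for the thalamus and the septum, and Calb2 (-1.97) for the thalamus and GABA neurons. The part of glia and neighbouring tissue in the other differences was not tested.

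Some genes were measured high and alike in both regions. The 5 with the narrowest interval around 0 among genes with a mean at or above the 90th percentile were the translation factor gene Eef1a1, the G protein gene Gnao1, the phosphodiesterase gene Pde2a, the sugar transferase gene Ogt and Ubap2. Their 95% intervals lay between -0.08 and 0.07. Eef1a1 had 12.23, 12.29 and 12.36 in PFC and 12.24, 12.30 and 12.35 in STR. Some subunits of housekeeping complexes, by contrast, lay far from the median of their complex. Polr2f, a subunit of RNA polymerases, had 7.78, 8.02 and 8.17 in PFC and 10.48, 10.74 and 10.94 in STR, where the median of 12 polymerase II subunit genes was -0.11. Psmb5, a catalytic proteasome subunit, had 8.0, 8.38 and 8.59 in PFC and 10.60, 10.82 and 10.97 in STR (-2.43 ± 0.05), against a median of 0.07 over 36 subunits, and Cox7b of the respiratory chain had 9.16, 9.38 and 9.55 in PFC and 11.34, 11.73 and 11.93 in STR (-2.32 ± 0.06), against a median of -0.22 over 15 subunits. Cox7b differed by -0.61 on its second row. The other called subunits were Polr2b (1.53), Psma7 (1.09) and Psmd5 (1.05), higher in PFC, and Psmb4 (-1.47), Cox5b (-1.24), Psmb2 (-1.13) and Polr2j (-1.08), lower. The mean levels of Polr2f, Psmb5 and Cox7b in SN/VTA and HAB were near those of STR, at 10.40 and 9.94 for Polr2f, 11.13 and 10.77 for Psmb5 and 11.26 and 10.92 for Cox7b, so that PFC had the lowest mean of the 4 tissues.

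The array also carries microRNA genes, whose probes read the hairpin region and its longer precursors and not the mature microRNA. Of 247 such genes 8 were higher in PFC and 15 lower, against 3.59% and 2.64% of all genes, with a median of -0.13. Among the 8 was Mir101c (1.09 ± 0.33), which was lower in PFC in 4 of 12 pairs. Its call held in 6 of the 12 fits that left out a pair. The mature sequences of 7 of the most different ones that RefSeq places on GRCm38.p6 are shown, with bases 2 to 8, the seed that pairs with targets, in capitals; the 7 seeds were all distinct.
mmu-miR-703: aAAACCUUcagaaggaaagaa
mmu-miR-128-3p: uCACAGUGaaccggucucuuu
mmu-miR-9-5p: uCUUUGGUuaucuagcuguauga
mmu-miR-377-3p: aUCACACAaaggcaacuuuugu
mmu-miR-505-3p: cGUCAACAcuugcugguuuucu
mmu-miR-1912-3p: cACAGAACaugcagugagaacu
mmu-miR-544-3p: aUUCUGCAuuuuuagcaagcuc

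Mir128-1, a neuronal microRNA gene whose mature strand lies at chr1:128202404-128202424 (plus strand) within R3hdm1, had levels of 8.01, 8.20 and 8.45 in PFC and 6.48, 6.67 and 6.77 in STR, a difference of 1.56 ± 0.05 (limma, adjusted p = 1.02e-14). Its host gene R3hdm1 differed by 0.57. The mature miR-9-5p, which acts in cortical neuron formation, is encoded identically by several genes. Of these Mir9-2, with its hairpin at chr13:83738814-83738885, differed by 1.42 ± 0.08, Mir9-1, at chr3:88215598-88215686, by 0.89 ± 0.07 and Mir9-3 by 0.00 ± 0.07, so that the copies of this sequence did not move alike. Mir703, whose hairpin lies at chr5:98475556-98475664, was the highest of all (2.33 ± 0.08), followed among the 5 highest by Mir5103 (1.57), Mir128-1, Mir1898 (1.43) and Mir9-2.

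The lowest was Mir377, whose hairpin lies at chr12:109740510-109740577, with levels of 5.60, 6.15 and 6.43 in PFC and 8.57, 8.95 and 9.07 in STR, a difference of -2.82 ± 0.08. It was followed by Mir505 (hairpin at chrX:60394416-60394473, -2.32), Mir1912 (chrX:147009441-147009527, -2.07), Mir5125 (-1.91) and Mir544 (chr12:109729335-109729392, -1.68). Mir1912 lies within the serotonin receptor gene Htr2c, which was lower in PFC by the same rule. It was the 1 microRNA gene called in the direction of its called host among 87 genes with a tested host, and across these 87 genes the differences of microRNA gene and host correlated with r = 0.315, where genes are not independent replicates. Mir377 and Mir544 belong to the large imprinted cluster on chromosome 12 that is expressed from the maternal chromosome together with Meg3, Rian and Mirg. The cluster was singled out after its values were seen. Of its 36 measured microRNA genes 7 were lower in PFC, 0 higher and 27 below 0, with a median of -0.40, while 8 of the other 211 were higher, 8 lower and 129 below 0, with a median of -0.11. The long RNAs of the cluster differed by -0.22 ± 0.05 (Meg3) and -0.04 ± 0.05 (Rian), and Dlk1, the neighbouring gene expressed from the paternal chromosome, by -1.63 ± 0.07.

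**Figure D3:**
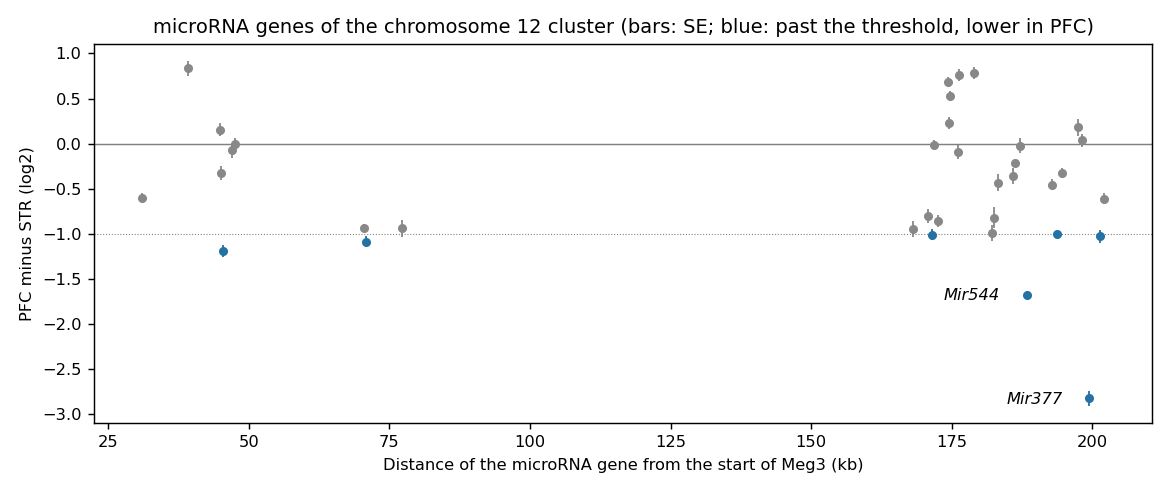
Difference PFC minus STR (log2, with SE bars) of the 36 microRNA genes of the chromosome 12 cluster against distance from the start of Meg3 (kb); blue marks the 7 genes past the threshold. Most lay below 0, Mir377 at -2.82 and Mir544 at -1.68 furthest, while Mir493 lay at 0.83.

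The difference between the regions held over the day. At each of the 6 times between 584 and 726 genes had a mean difference of at least 1 and between 467 and 557 of at most -1, over 2 pairs each. The SD of the differences across genes was 0.54 to 0.56 at every time. Of the 621 genes called higher in PFC, 408 passed 1 at all 6 times, and of the 456 called lower, 283 passed -1 at all 6. A change of the difference over the day was tested by a 24-h cosine curve fitted to the paired differences. It was called in 2 genes (0.0116% of those tested), Mir101c and Coch, where 1178 genes (6.82%) had an unadjusted p under 0.05. The test over the 6 times called 1 gene (0.00579%), Mir101c, and 3 without the pairing, where 1149 genes (6.65%) had an unadjusted p under 0.05 in the paired fit. The contrast of dark and light times called 0 genes by limma, with 963 (5.57%) at an unadjusted p under 0.05. The 10 genes with the smallest p for this contrast, given as the log2 difference at dark times minus that at light times and among them Slc9a2 (-0.53), Vwa5b1 (0.46), Gfod1 (0.47), Gpr52 (-0.42), Ndnf (-0.47), Lsm11 (0.58) and Iqgap2 (0.43), all had an adjusted p of 0.709. With an intensity trend and robust variances in limma, the curve test called 17 genes, which included Dbp, Nr1d1, Rgs4, Astx5, Egr1 and Gpr52.

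The level of 3 clock genes passed the threshold between the regions, and others differed by less. For 4 clock genes the arrays of the tissues did not overlap, against 29.6% of all genes. Of 21 measured, 3 were higher in PFC and 0 lower, against 3.59% and 2.64% of all genes: Rorb, Bhlhe40 (1.61 ± 0.06), a repressor of the loop, and Clock (1.06 ± 0.04). After quantile normalization Clock fell just under the threshold, at 0.994. Clock had levels of 10.66, 10.80 and 10.91 in PFC and 9.51, 9.73 and 9.94 in STR. Its relative Npas2, which can stand in for it in the forebrain, had 9.29, 9.41 and 9.55 in PFC and 9.57, 9.85 and 9.93 in STR (-0.40 ± 0.04). Arntl, which encodes BMAL1, differed by 0.66 ± 0.05, and Ciart, a repressor, by -0.48 ± 0.06.

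None of the 21 clock genes had a called difference between the daily curves of the regions. In 3 of them the unadjusted p of the limma curve test was under 0.05, against 6.82% of all genes. Fits within each tissue called 31 genes rhythmic in PFC (0.179%) and 3 in STR (0.0174%), of which 7 and 3 belonged to the clock list. The count in PFC was 20 with the replicate number as a block, and 13 to 26 with 1 array left out. Ciart ranged from 6.91 at ZT23 to 8.39 at ZT11 in PFC and from 7.28 at ZT23 to 8.88 at ZT11 in STR, with amplitudes from mean to peak of 0.66 and 0.75 (log2) and peaks at ZT11.0 and ZT10.5. Arntl ran opposite, with an amplitude of 0.42 and a peak at ZT24.0 in PFC and 0.45 and ZT22.8 in STR. For both genes the curve of the difference missed the threshold by far, with adjusted p-values of 0.899 and 0.849. Dbp, an output factor of the clock, reached an amplitude of 0.65 at a peak of ZT12.8 in PFC and 0.40 at ZT11.0 in STR, and Nr1d1, the gene of REV-ERB alpha, 0.65 at ZT10.0 in PFC and 0.41 at ZT8.2 in STR. The difference curves of Dbp (amplitude 0.35 ± 0.05, adjusted p = 0.221) and Nr1d1 (0.34 ± 0.06, adjusted p = 0.318) were not called. With an intensity trend and robust variances in limma both were called (adjusted p = 0.0034 for Dbp and 0.0112 for Nr1d1). Dbp rose to 10.13 and 10.07 at ZT11 in PFC, against 9.50 and 9.43 in STR, while at ZT3 it had 8.80 and 8.88 in PFC and 8.81 and 8.97 in STR. Per1 and Per3 had amplitudes of 0.31 and 0.29 in PFC and 0.28 and 0.33 in STR. For 24 of the 31 genes called in PFC the amplitude was smaller in STR (medians 0.306 in PFC and 0.223 in STR), which the choice by the PFC fit favours, and the difference was called in 1 of them, Mir101c.

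**Figure D4:**
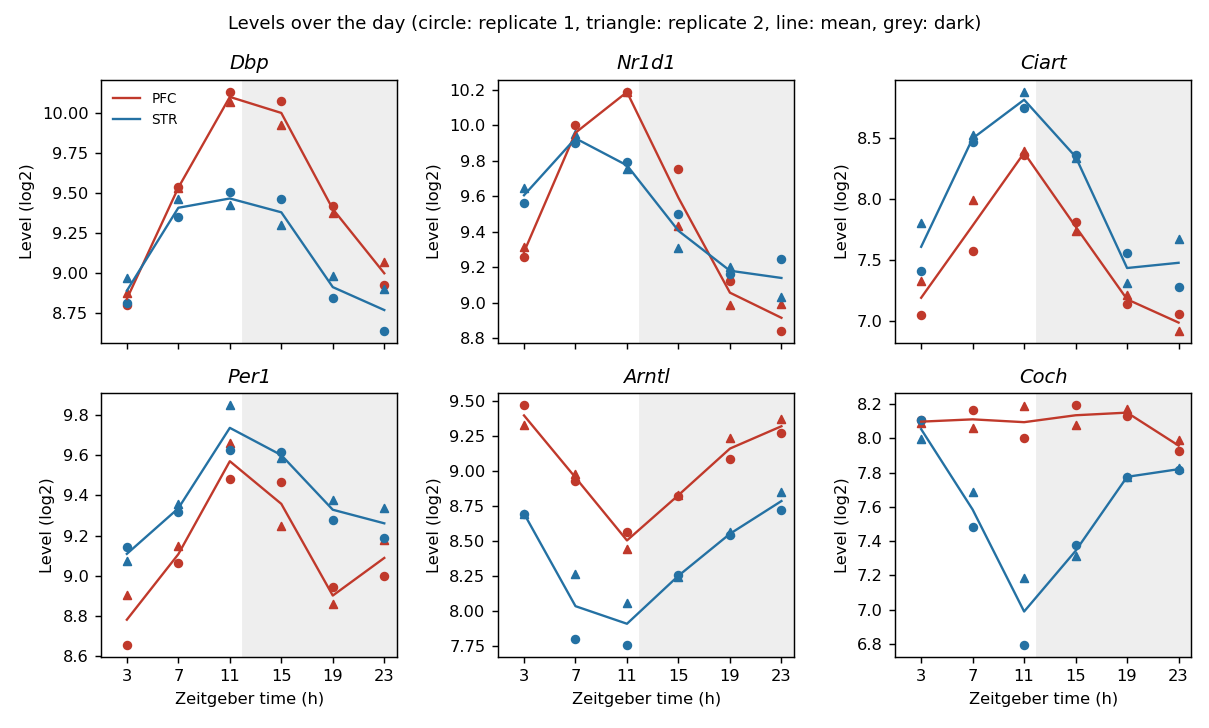
Levels (log2) of 5 clock genes and Coch against Zeitgeber time (h) in PFC (red) and STR (blue); circles and triangles are replicates 1 and 2, lines the means, and grey marks the dark. Dbp and Nr1d1 climbed higher in PFC at ZT11, Ciart and Arntl ran in parallel, and Coch was lowest at ZT11 in STR, with 6.79 and 7.18, and nearly level in PFC.

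The E-box CACGTG, the element that CLOCK and BMAL1 bind, was searched on both strands in the 250 bases before the start of each gene in RefSeq. It stood in 5 of 20 clock genes with such a sequence (Bhlhe41, Ciart, Cry1, Per1 and Tef). The share was 9.06% of the 13374 tested genes with such a sequence, and 6.86% of all 27025 genes. Ciart and Per1 had their highest level at ZT11 in both regions and both cycles, though the rhythm of Per1 was called in neither region. A link of the element to this timing was not tested. The stretches of both genes that hold the element are shown, with the element in capitals.
Ciart, chr3:95882237-95882374, minus strand: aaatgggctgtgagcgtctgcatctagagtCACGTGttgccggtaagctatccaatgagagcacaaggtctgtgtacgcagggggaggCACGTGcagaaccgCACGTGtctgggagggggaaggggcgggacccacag
Per1, chr11:69098753-69098818, plus strand: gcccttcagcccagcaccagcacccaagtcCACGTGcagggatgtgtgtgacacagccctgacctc

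Coch, which encodes the extracellular matrix protein cochlin, was rhythmic in the difference and flat in PFC. Its rhythm within STR was not called (limma, adjusted p = 0.136). Its PFC levels stayed between 7.93 and 8.19 at all times. In STR it had 8.11 and 8.0 at ZT3, 7.48 and 7.69 at ZT7, 6.79 and 7.18 at ZT11, 7.38 and 7.31 at ZT15, 7.78 and 7.77 at ZT19 and 7.81 and 7.83 at ZT23. Both cycles thus showed the low point at ZT11, and at ZT3 the STR levels touched those of PFC. The curve of the difference had an amplitude of 0.50 (adjusted p = 0.0455). The adjusted p was 0.0638 without the pairing, 0.0544 with arrays centred on their medians and 0.0520 after quantile normalization, and the call held in only 1 of the 12 fits that left out a pair, the one without ZT7 of replicate 2. The amplitude was 0.45 to 0.53 in these 12 fits, and the adjusted p was 0.00143 with an intensity trend and robust variances, 0.0306 with a stricter filter and 0.0429 with rows averaged.

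Mir101c gave the steepest change over the day. Its mature sequence, with the seed in capitals, lies at chr9:3038680-3038698 on the minus strand.
mmu-miR-101c: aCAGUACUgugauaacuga

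In PFC it had 4.08 and 4.47 at ZT3, 4.28 and 4.2 at ZT7, 7.0 and 6.70 at ZT11, 6.89 and 7.51 at ZT15, 7.20 and 7.44 at ZT19 and 4.79 and 4.65 at ZT23. In STR all 12 arrays lay between 3.61 and 5.27. The 6 high PFC arrays were those of ZT11, ZT15 and ZT19 in both cycles, while the STR arrays lay near the level of the low ones. The mean was 5.77 in PFC and 4.67 in STR, the latter under the filter of 5.05. The difference curve peaked at ZT15.1 with an amplitude of 1.75 (adjusted p = 0.0095), and the call was lost without the ZT3 pair of replicate 1 (adjusted p = 0.0913). Astx5 on the X chromosome and Srsy on the Y chromosome, genes of multi-copy families whose probes can share targets, were high in the same 6 PFC arrays. Astx5 had 5.83 to 6.74 in these and 4.40 to 5.14 in the other PFC arrays, against 4.57 to 5.16 in STR, and Srsy had 5.67 to 6.14 and 4.60 to 5.05, against 4.52 to 5.11 in STR. Their difference curves were not called (adjusted p = 0.221 and 0.252). That of Astx5 was called with an intensity trend and robust variances in limma (adjusted p = 0.0112), and that of Srsy was not. The test over the 6 times also called Astx5 with these settings.

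**Figure D5:**
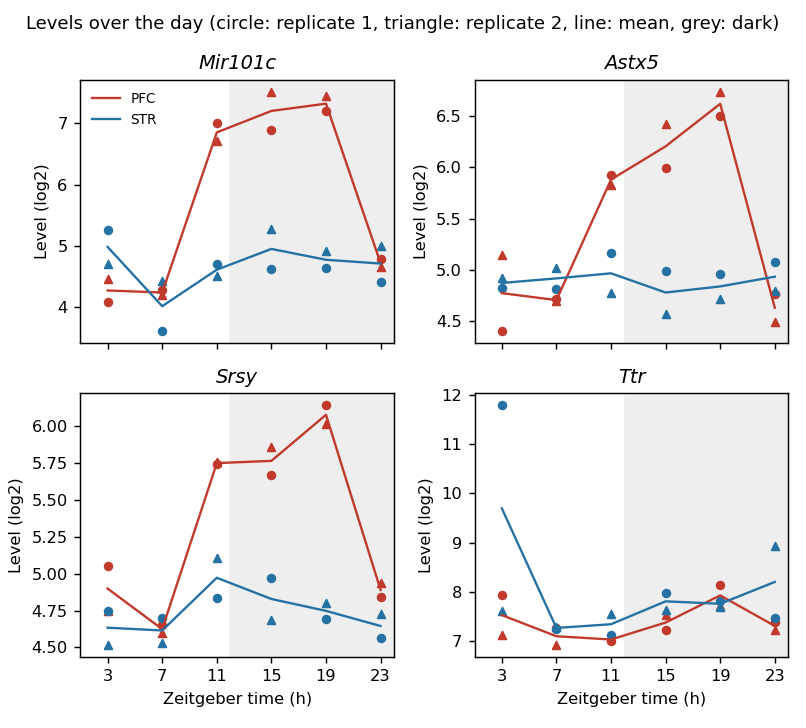
Levels (log2) of Mir101c, Astx5, Srsy and Ttr against Zeitgeber time (h) in PFC (red) and STR (blue); circles and triangles are replicates 1 and 2, lines the means, and grey marks the dark. Mir101c, Astx5 and Srsy were high in PFC at ZT11, ZT15 and ZT19 of both replicates, and Ttr stood at 11.79 in 1 STR array at ZT3.

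Among genes that respond to activity, heat and hormones, about as few passed the threshold as among all genes (6.23%). Of 26 immediate early genes 2 were higher in PFC, Dusp1 (1.10 ± 0.07) and Dusp6 (1.00 ± 0.07), and the median was 0.26. Dusp6 lay at the threshold itself, differed by 0.05 on its second row, and had a difference of 0.97 without the ZT23 pair of replicate 1 or the ZT3 pair of replicate 2, and of 0.98 to 0.99 without ZT11 or ZT19 of replicate 1 or ZT7 of replicate 2. Egr1, a readout of neuronal activity, reached an amplitude of 0.50 at a peak of ZT16.3 in PFC and 0.24 at ZT18.4 in STR, and Egr3 0.34 at ZT19.2 in PFC and 0.24 at ZT20.5 in STR. Both were called rhythmic in PFC and neither in STR, but their difference curves were not called (adjusted p = 0.46 and 0.759). That of Egr1 was called with an intensity trend and robust variances in limma (adjusted p = 0.0493). None of 11 heat shock genes was called, with a median of 0.31, and 1 of 12 ER chaperone genes was, Hsp90b1 (1.10 ± 0.05). Zbtb16 was the 1 called gene of 17 that respond to glucocorticoids (1.60 ± 0.09), while the receptor gene Nr3c1 differed by -0.01 ± 0.04.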

How the data were processed

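RNA of 24 PFC and STR pools, and of 24 pools of other tissues, was read on Affymetrix Mouse Gene 2.0 ST arrays from biotin-labelled cDNA, per the labels' protocols. The authors deposited log2 values for 41345 rows; no source used here gives the background correction or normalization behind them, and the values were used as deposited. Of these rows 23521 had 1 gene symbol in the platform annotation, 1814 had several and were left out, and 16010 were not listed and are unnamed here. The row with the highest mean stood for a gene, and 17274 of 22180 genes were tested, those whose average across all 48 arrays reached 5.05, which is the 30th percentile of the rows.

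Differences PFC minus STR within pairs of the same ZT and replicate were fitted in limma 3.58.1 (R 4.3.3), with a 24-h cosine and sine for curves and 6 time groups for the times, with Benjamini-Hochberg adjustment across the tested genes. The pairing comes from the labels, whose titles give time and cycle; they do not say that paired pools came from the same mice. Deviations from the time means correlated by 0.0144 to 0.078 within pairs. The fits were tested on simulated data. The genes named were the 15 highest and lowest differences past the threshold (passing over predicted genes, short RNAs, and smell and immune receptor genes), the 10 smallest p-values for dark against light, the 5 highest and lowest microRNA genes, 5 genes that were alike, and members of 41 lists. The members and lists were chosen with earlier results of these data known. Some list genes were not analysed here. Alternatives were other scalings, filters, row choices, thresholds and variance models, the fit without the pairing, and leaving out pairs or a cycle. The number of arrays limits the precision. Figures were drawn with matplotlib 3.10.9.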

Additional observations from a re-analysis of the deposited data

Results flagged for a closer look

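The PFC minus STR difference changed over the day in 2 genes by the curve test itself. For Coch the curve of the difference had an amplitude of 0.50 (log2; limma, adjusted p = 0.0455), with nearly level values in PFC and a low point at ZT11 in STR in both cycles. For Mir101c it had an amplitude of 1.75 (adjusted p = 0.0095), with 6 high and 6 low arrays in PFC and low values in all 12 STR arrays. Neither call held with 1 cycle alone, where only 1 pair per time was left, so that this loss decides little.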

How the results depend on the processing

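The counts of genes called higher (621) and lower (456) in PFC stayed within 1.5 times under other scalings, filters, row choices, variance models, without the pairing and with either cycle alone. Only the required difference moved them: at 0.5 they were 2272 and 1920, and at 2 they were 59 and 54. Leaving out 1 pair gave 613 to 634 higher and 445 to 468 lower. Of 143 called genes that are named, 127 kept call and direction under every alternative run and none changed sign; 16 lost the call under at least 1. With the rows of a gene averaged, Kcna4 (-0.72), Kcnj3 (0.69), Deptor (0.85), Dusp6 (0.53) and Mef2c (0.99) lost it. After quantile normalization Clock (0.994), Epha4 (0.97), Psmd5 (0.96), Dusp6 (0.94) and Npy2r (-0.98) did. With arrays centred on their medians Npy2r (-0.95), Oprk1 (-0.992), Grm4 (-0.995) and Kcnn3 (-0.9995) did. Of 64 named genes without a call, 2 (Arpp21 and Crym) gained one and 15 changed sign under at least 1 alternative.

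The counts of genes whose difference changed over the day were small and unstable. For the curve test (2 genes) the count was 2 without the pairing, which is the fit with no replicate block. It was 1 with centred arrays, after quantile normalization, with no filter and with a stricter filter, 17 with an intensity trend and robust variances, and 0 without replicate 1 or without replicate 2. Leaving out 1 pair gave 0 to 2. For the test over the 6 times (1 gene) the count was 3 without the pairing, 0 with no filter or a stricter one, 6 with the trend, and 0 to 2 with 1 pair left out; with 1 cycle alone no residual degrees of freedom were left. Rhythmic genes in PFC (31) fell to 20 with no filter and to 20 with a replicate block, and to 13 to 26 with 1 array left out; those in STR (3) numbered 4 with a replicate block, 2 with no filter and 1 to 3 with 1 array left out. The cause was not tested. Dark against light gave 0 genes in every alternative run, and was not run with 1 cycle alone.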

Other observations

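Oxt, the oxytocin precursor gene, was looked at after its values were seen. It had levels of 5.83, 6.22 and 6.39 in PFC and 6.43, 7.18 and 8.06 in STR (lowest, median and highest of 12 arrays), so that the tissues did not overlap, with a difference of -0.93 ± 0.14 (SE, n = 12 pairs). The mitochondrial gene ND6 had levels of 10.39 to 10.74 in PFC and 6.91 to 10.73 in STR, where 3 arrays, at ZT3 and ZT7 of replicate 2 and ZT11 of replicate 1, lay at 7.07, 6.91 and 7.70. Among the 16010 rows with no gene listed, 8.57% passed the threshold used for genes between PFC and STR, against 5.06% of the rows with 1 symbol.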
